A study of Sus scrofa with 16 samples.

Results

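The ileal enterocytes of the pig were 130 of the 7061 cell barcodes that passed the quality filters, 105 from ileum containing Peyer's patches (IPP) and 25 from ileum dissected free of patches (NoPP). The filters asked for 1000 UMIs or more (unique molecular identifiers, 1 for each captured transcript) and 500 detected genes or more, and set a limit of 25% on the share of the 13 mitochondrial genes. Members had at least 1 UMI of EPCAM, a surface protein of epithelium, and none of PTPRC, the pan-leukocyte surface protein. They had fewer than 3 UMIs of CHGA, a granule protein of hormone cells, and fewer than 2 UMIs of BEST4, CA7 and OTOP2 together. In addition, FABP1, FABP6 and APOA1, which carry lipids and bile acids, had to give at least 1% of the UMIs. These 9 genes therefore chose the cells, and their levels are a description.

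The study sampled 7.5-week-old mixed-breed female pigs. Dithiothreitol and EDTA freed the epithelium, a Percoll step cleaned the cells, and libraries were made with 10x 3' version 3 chemistry. Each of the 4 regions (IPP, NoPP, jejunum or JEJ, and duodenum or DUOD) had 4 titles in the labels but 1 matrix whose barcodes carried no mark of a title. Each region was thus 1 sample with no replicate, no difference was tested, and the 177 of 986 JEJ cells within the same gate served for comparison.

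Enterocytes are the absorptive cells of the intestinal epithelium, with enzymes and carriers on a brush border that faces the gut lumen. The ileum is known for taking bile acids back from the gut. SLC10A2 carries them into the cell, FABP6 binds them inside, the pair SLC51A and SLC51B releases them at the base, and the nuclear receptor NR1H4 senses them. The ileum is also the site where vitamin B12 bound to intrinsic factor is taken up through a receptor made of CUBN and AMN.

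The gate removed cells in steps. In IPP, 511 of 3273 kept barcodes had EPCAM, 239 of these lacked PTPRC, 186 were left after the hormone cell and BEST4 limits, and 105 reached 1%. In NoPP the same steps left 226, 122, 85 and 25 of 2084 barcodes. The IPP barcodes nearest to the limit had 1.01, 1.04 and 1.04% inside it and 0.992, 0.991 and 0.935% outside it. The NoPP barcodes nearest to it had 1.63, 1.67 and 1.71% inside and 0.887, 0.828 and 0.711% outside. From NoPP, 89 barcodes that met the gate had been left out because they held at least 10 times as many UMIs in the DUOD library. Levels are given in CPM, a gene's UMIs scaled by the group's total, on which 10000 CPM is 1% of UMIs. The 25 NoPP members had 69141 CPM of FABP6, against 32.5 CPM (5 UMIs) in the barcodes left out. TMPRSS15, the enteropeptidase made in the duodenum, was at 2.11 CPM in the NoPP members and 2043 CPM in the barcodes left out.

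Sequencing depth differed between the groups. The median cell had 16126 UMIs in IPP (quartiles 11841 and 20598), 18152 in NoPP (15531 and 23009) and 7899 in JEJ (2699 and 36368). The summed UMIs were 1703539 in IPP, 474046 in NoPP and 3273851 in JEJ. Mitochondrial genes gave a median of 17.2% of UMIs in IPP, 15.5% in NoPP and 10.5% in JEJ. With cells thinned to 2000 UMIs, 51 of 74 named ratios of IPP to JEJ left their interval, and at a mitochondrial limit of 10%, which kept 10 IPP cells, 62 of 74 did. No IPP or NoPP member had 10% or more of its UMIs under the same barcode in another library. The intervals given with ratios and shares are exact 95% intervals of the counting error alone. They say nothing of the spread between pigs.

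The label was set beside its 5 markers, of which EPCAM and FABP6 were used by the gate. EPCAM was at 1553 CPM in IPP, 1337 CPM in NoPP and 871 CPM in JEJ. FABP6, the bile acid binder, was at 28229 CPM in IPP, 69141 CPM in NoPP and 0.305 CPM in JEJ, where it had 1 UMI. SLC10A2 was at 1067 CPM in IPP, 692 CPM in NoPP and 1.83 CPM in JEJ. TMIGD1, an adhesion molecule found on brush borders, reached 2501 CPM in IPP, 1780 CPM in NoPP and 4.89 CPM in JEJ. ENPEP, a brush border aminopeptidase, was at 2552 CPM in IPP, 2550 CPM in NoPP and 568 CPM in JEJ. All markers were thus present in both ileal groups, EPCAM by the gate and FABP6 as part of it. FABP6, SLC10A2 and TMIGD1 were nearly absent from the jejunal cells.

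UMIs of these genes were also found in cells that should lack them. Of the 105 IPP members, 103 had a UMI of FABP6 (98.1%, interval 93.3 to 99.8), against 399 of 917 IPP T cells, defined by UMIs of CD3E and PTPRC without EPCAM (43.5%, 40.3 to 46.8). Median depth was 16126 UMIs in the members and 3830 in the T cells. With each cell thinned to 1000 UMIs, FABP6 was seen in 84.8% of the members (76.4 to 91.0) and in 14.7% of the T cells (12.5 to 17.2). SLC10A2 was then seen in 56.2% of the members (46.2 to 65.9) and in 0.436% of the T cells (0.119 to 1.11). FABP6 was at 28229 CPM in the IPP members, against 130 CPM in the IPP T cells.

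Genes of other cell types were sought with fixed marker lists. Of the 11 measured T and innate lymphoid markers, PTPRC was at 0 by the gate and CD3E had 2 UMIs in the IPP members. CCL5 had 84 UMIs there, in 56 of the 105 members, GNLY 44, GZMB 39 and GZMA 21. The list summed to 117 CPM in IPP, 71.7 CPM in NoPP and 83.4 CPM in JEJ. Of 8 B and antibody-secreting markers, CD79A and PAX5 were at 0 in IPP, while XBP1 had 154 UMIs and JCHAIN 18. The sums of this list were 112 CPM in IPP, 86.5 CPM in NoPP and 99.3 CPM in JEJ. The 8 myeloid markers, with CSF1R at 0 in all 3 groups, summed to 52.8 CPM in IPP, 12.7 CPM in NoPP and 6.11 CPM in JEJ. The 9 hormone cell markers summed to 52.8 CPM in IPP, 63.3 CPM in NoPP and 8.86 CPM in JEJ, and the 6 markers of BEST4 cells to 803, 350 and 171 CPM in the same groups. The 4 measured red blood cell markers had 68, 22 and 14 UMIs in these groups, and the 6 stromal and endothelial markers 4, 0 and 2 UMIs. All 5 tuft markers were at 0 in both ileal groups. The crypt markers LGR5 and ASCL2 were at 0 in both, and OLFM4, a gene of crypt stem cells, had 1 UMI in IPP and 0 in NoPP. A single cell held 54.2% of the T list's UMIs in JEJ, 44.4% of the myeloid list's in IPP and 41.5% of the BEST4 list's in JEJ. Goblet genes had the highest sums among the lists of other cell types. The 6 measured goblet markers summed to 7273 CPM in IPP, 4926 CPM in NoPP and 1646 CPM in JEJ, with 48.2%, 98.0% and 71.1% of their UMIs in 1 cell of the group. The 5 M cell markers summed to 2082 CPM in IPP, 1152 CPM in NoPP and 510 CPM in JEJ, mostly from CCL20. Barcodes rich in either set are described at the end.

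**Figure D1:**
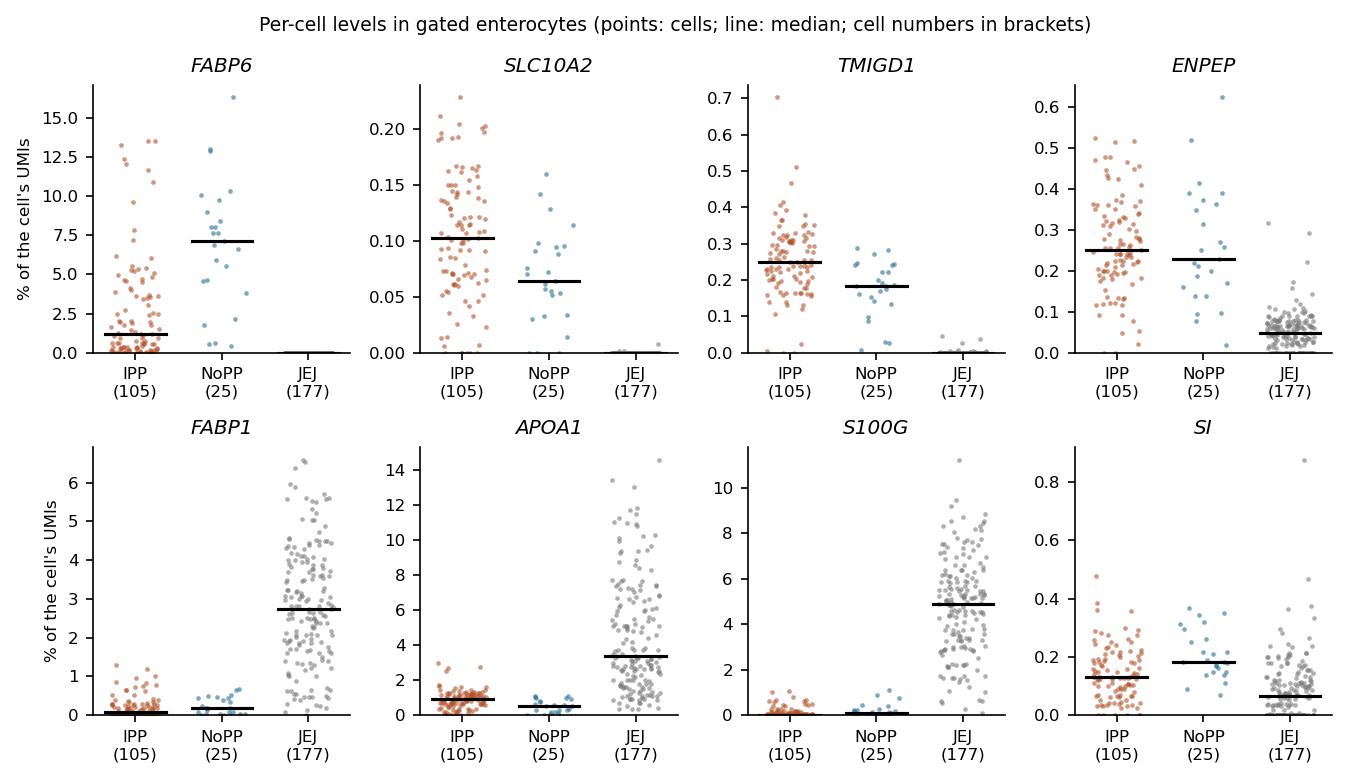
Share of each cell's UMIs (vertical axes, percent, linear) given by 8 genes in IPP, NoPP and JEJ cells within the gate. Each point is a cell and each line the median of the group. FABP6, SLC10A2 and TMIGD1 lie at or near 0 in the JEJ cells, whereas FABP1, APOA1 and S100G lie lower in both ileal groups. FABP6 spreads from 0 to 13.5% within IPP.

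Ileal enterocytes of IPP were then set against the jejunal cells within the same gate, to describe what marks the distal absorptive cell. A gene was measured when it had at least 20 CPM in either group and at least 10 UMIs in both together, and it was called at a 2-fold difference. Of 4732 measured genes, 494 were at least 2-fold higher in IPP (10.4%) and 644 at least 2-fold lower (13.6%). The median log2 ratio over all measured genes was -0.13. Scaling by this median, which shifts every log2 ratio by 0.13, turned the balance to 599 higher and 522 lower.

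Bile acid genes were higher in IPP at most steps from uptake to sensing. Of the 12 on the list 8 were measured, 4 were at least 2-fold higher in IPP and 1 lower, and the list's median log2 ratio was 1.63. FABP6 was used by the gate. It had 48089 UMIs in IPP and 1 UMI in JEJ, a ratio of 92417 (16586 to 3650400). SLC10A2, the carrier on the brush border, was 582-fold higher (267 to 1589). Of the basal export pair, SLC51A was at 638 CPM in IPP and 126 CPM in JEJ, 5.06-fold higher (4.51 to 5.68), while SLC51B was at 1502 CPM in IPP and 793 CPM in JEJ, 1.89-fold (1.79 to 2.00), short of the 2-fold call. NR1H4, the bile acid receptor, was at 403 CPM in IPP and 22.9 CPM in JEJ, 17.6-fold higher (13.9 to 22.7). NR0B2, a repressor that NR1H4 is known to induce, stood on the other side, at 4.70 CPM in IPP (8 UMIs) and 57.1 CPM in JEJ, 12.2-fold lower (6.05 to 28.6). FGF19, the hormone that ileal cells are known to release in response to bile acids, had 0 UMIs in all 3 groups, with a floor of 3 UMIs at 1.76 CPM in IPP.

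Within single cells the carrier set most cells of both ileal groups apart from JEJ, while IPP and NoPP overlapped. SLC10A2 gave a median of 0.103% of a cell's UMIs in IPP (lowest 0, highest 0.228%), 0.0639% in NoPP (0 to 0.160%) and 0% in JEJ (0 to 0.00778%). It was at 0 in 6 of 105 IPP cells, 3 of 25 NoPP cells and 174 of 177 JEJ cells. SLC51B overlapped between the groups, with a median of 0.136% in IPP (0 to 0.492%), 0.160% in NoPP (0.0699 to 0.326%) and 0.0700% in JEJ (0 to 0.479%).

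Brush border peptidases, which cut peptides at the cell surface, were mostly higher in IPP. Of 13 measured genes 9 were at least 2-fold higher and 1 lower, and the list's median log2 ratio was 2.06. TMIGD1, an adhesion molecule kept on this list, was 512-fold higher (315 to 896). CPO, a carboxypeptidase of the brush border, had 751 UMIs in IPP and 0 in JEJ, at least 481-fold higher against a floor of 3 UMIs. XPNPEP2, an aminopeptidase that cuts before proline, was at 511 CPM in IPP and 1.83 CPM in JEJ, 279-fold higher (128 to 761). ENPEP was 4.49-fold higher (4.25 to 4.75). TMPRSS15 was the lower one, with 1 UMI in IPP and 88 in JEJ, 45.8-fold lower (8.01 to 1829). The remaining higher members were ANPEP, DPP4, NAALADL1, MEP1B and DPEP1, between 2.18-fold and 31.4-fold.

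Of 10 measured amino acid carriers 2 were higher and 1 lower, near the shares of 10.4% and 13.6% over all genes, with a median log2 ratio of 0.42. SLC1A1, a glutamate carrier, was at 374 CPM in IPP and 6.11 CPM in JEJ, 61.2-fold higher (39.3 to 101). SLC6A20, a proline carrier, was 7.48-fold higher (5.38 to 10.6), and SLC36A1, a carrier of small amino acids, was 4.42-fold lower on 8 IPP UMIs (2.12 to 10.7). The peptide carrier SLC15A1 was at 249 CPM in IPP and 202 CPM in JEJ, 1.23-fold (1.09 to 1.39).

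Vitamin genes were split, also among those of vitamin B12. CUBN, the B12 receptor, had 252 UMIs in IPP and 0 in JEJ, at least 161-fold higher, and its partner AMN was 3.30-fold higher (2.82 to 3.88). CD320, which takes up B12 from blood, was 12.1-fold lower (5.75 to 30.6). Genes of vitamin A handling were lower in IPP. RBP2, which binds retinol inside the cell, was at 478 CPM in IPP and 7954 CPM in JEJ, 16.6-fold lower (15.5 to 17.8). BCO1, which splits carotene, had 1 UMI in IPP and 371 in JEJ, 193-fold lower (34.4 to 7645), and SCARB1, a lipid and carotenoid receptor, had 0 UMIs in IPP, at least 19.8-fold lower. Over the 9 measured vitamin genes 2 were higher and 5 lower, with a median log2 ratio of -1.14.

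Mineral genes were lower in 6 of 13 cases and higher in 3, with a median log2 ratio of -0.92. SLC13A1, the sulfate carrier, had 1115 UMIs in IPP and 1 UMI in JEJ, a ratio of 2143 (384 to 84711). SLC26A3, an exchanger of chloride for bicarbonate, had 75 UMIs in IPP and 0 in JEJ, at least 48.0-fold higher. S100G, the calcium binder of the cytosol, was at 1487 CPM in IPP and 45376 CPM in JEJ, 30.5-fold lower (29.3 to 31.8). Its median was 0.0202% of a cell's UMIs in IPP (0 to 1.04%) and 4.91% in JEJ (0.0736 to 11.3%), with little overlap. The iron importer SLC11A2 and the iron exporter SLC40A1 were 21.7-fold lower (10.9 to 50.6) and 21.9-fold lower (13.2 to 39.3). MT1A, a metallothionein that binds zinc and copper, was at 62967 CPM in IPP and 24330 CPM in JEJ, 2.59-fold higher (2.56 to 2.61).

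Fatty acid and chylomicron genes had no member higher and 8 of 15 lower, with a median log2 ratio of -1.15. FABP1 and APOA1 took part in the gate. With 1 UMI of FABP6 in JEJ, the JEJ cells entered through FABP1 or APOA1, whereas IPP cells could also enter through FABP6. How far this choice of cells bears on FABP1, APOA1 and the other genes of the list was not tested. FABP1, a fatty acid binder, was at 2522 CPM in IPP and 30882 CPM in JEJ, 12.2-fold lower (11.9 to 12.6), and APOA1, the main protein of high-density lipoprotein, was 3.24-fold lower (3.19 to 3.30). APOC3, a protein of chylomicrons, was at 205 CPM in IPP and 6065 CPM in JEJ, 29.5-fold lower (26.6 to 32.9), and DGAT2, a triglyceride enzyme, was 11.6-fold lower (5.97 to 25.7). FABP2, the other fatty acid binder of enterocytes, was at 6723 CPM in IPP and 6308 CPM in JEJ, 1.07-fold (1.04 to 1.09). Of 8 measured sterol genes 2 were higher and 0 lower, beside 10.4% and 13.6% over all genes, with a median log2 ratio of 0.61. SREBF2, a transcription factor of sterol genes, was among the higher ones, by 2.38-fold (1.84 to 3.10).

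Of 11 measured sugar genes 1 was higher and 3 lower, beside shares of 10.4% and 13.6% over all genes. The median log2 ratio was -0.45. Trehalase TREH had 0 UMIs in IPP and 617 in JEJ, at least 107-fold lower. The fructose carrier SLC2A5 was 3.39-fold lower (2.57 to 4.55), though it did not reach 2-fold when each cell was thinned to 2000 UMIs (log2 ratio -0.68). PCK1, an enzyme of glucose synthesis, was 3.53-fold higher (3.10 to 4.03), but its log2 ratio was 0.05 at a mitochondrial limit of 10%, which left 10 IPP cells. SI, the sucrase-isomaltase, was at 1404 CPM in IPP and 1174 CPM in JEJ, 1.20-fold (1.14 to 1.26), and the glucose carrier SLC5A1 was 1.38-fold (1.31 to 1.46).

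Among 12 measured ion and water genes 5 were higher and 2 lower, with a median log2 ratio of 0.75. The bicarbonate carrier SLC4A4 was 3.71-fold higher (3.17 to 4.36) and the water channel AQP3 5.08-fold higher (3.58 to 7.33), while AQP11 was 4.91-fold lower (3.52 to 7.02). GUCA2B, which encodes uroguanylin, a peptide that drives fluid secretion, was 5.77-fold higher in summed UMIs (4.98 to 6.72) but turned lower in the mean of the cells' CPM (log2 ratio -0.47). Its relative GUCA2A, 3.52-fold higher in summed UMIs (3.05 to 4.06), did the same (-1.08) and was also lower with cells thinned to 2000 UMIs (-0.16). In JEJ 1 cell held 51.5% of the GUCA2A UMIs and 33.8% of the GUCA2B UMIs, against 7.57% and 9.83% in IPP. The part of such cells in the turn was not tested. GUCA2A and GUCA2B are also known from BEST4 cells. The defining markers of these cells, BEST4, CA7 and OTOP2, limited by the gate, had 5, 3 and 0 UMIs in IPP and 1, 0 and 0 in JEJ.

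Enzymes that detoxify or conjugate were split 2 higher and 4 lower of 11, beside 10.4% and 13.6% over all genes. Their median log2 ratio was -0.88. SULT1E1, an estrogen sulfotransferase, had 380 UMIs in IPP and 1 in JEJ, a ratio of 730 (130 to 28920). EPHX1, an epoxide hydrolase, was at 67.5 CPM in IPP and 2721 CPM in JEJ, 40.3-fold lower (33.5 to 48.9), CYP2C49, a cytochrome P450, had 0 UMIs in IPP, at least 30.4-fold lower, and the nuclear receptor NR1I3 was 16.3-fold lower on 4 IPP UMIs (6.19 to 60.6).

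Several transcription factors of gut regions were found in one group and not in the other. Of 8 measured factors 4 were higher in IPP and 3 lower, with a median log2 ratio of 0.51. The posterior homeobox genes HOXB7 and HOXA9 had 75 and 45 UMIs in IPP and 0 in JEJ, at least 48.0-fold and at least 28.8-fold higher. OSR2, a zinc finger factor, had 223 UMIs in IPP and 1 in JEJ, a ratio of 429 (76.1 to 17002), and CDX2, an intestinal homeobox factor, was 2.22-fold higher (1.88 to 2.62). ONECUT2 and PDX1, factors of the proximal gut, had 0 UMIs in IPP, against 496 and 103 UMIs in JEJ, at least 86.0-fold and at least 17.9-fold lower. GATA4, which in mouse marks the jejunal side, had 1 UMI in IPP and 254 in JEJ, 132-fold lower (23.5 to 5241), while GATA6 was at 52.2 CPM in IPP and 57.4 CPM in JEJ, 1.10-fold lower (0.85 to 1.43). Of 14 measured enterocyte differentiation factors 4 were higher and 2 lower, beside 10.4% and 13.6% over all genes, with a median log2 ratio of 0.29. They included PRDM1, a repressor, 10.6-fold higher (6.35 to 18.6), KLF4, a factor of differentiated epithelium, at 359 CPM in IPP and 66.6 CPM in JEJ, and the fatty acid receptor PPARG, 9.80-fold lower on 6 IPP UMIs (4.36 to 27.3).

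Genes ordered along the villus in mouse were compared as well. Of 9 measured villus top genes 2 were higher, KLF4 among them, and 2 lower, among them adenosine deaminase ADA with 0 UMIs in IPP, at least 25.8-fold lower. The median log2 ratio was 0.32, and over all genes 10.4% were higher and 13.6% lower. Of 10 measured villus bottom genes 6 were lower and 1 higher, with a median log2 ratio of -1.07. CCL25, a chemokine that draws T cells to the gut, was at 354 CPM in IPP and 1277 CPM in JEJ, 3.61-fold lower (3.31 to 3.94), and OTC, an enzyme of the urea cycle, was 3.70-fold lower (2.95 to 4.70). The higher one was REG4, 24.7-fold (20.8 to 29.7), with 49.4% of its IPP UMIs in 1 cell. Its log2 ratio of 4.63 was 1.61 without the barcodes rich in goblet or M cell genes and -1.37 without cells that held 5 or more immune marker UMIs.

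Of 10 measured interferon genes IRF1 was higher, by 2.47-fold (2.04 to 2.98), near the share of 10.4% over all genes, and 0 were lower, with a median log2 ratio of -0.28. CD74, the only measured gene of the MHC class II list, had 38 UMIs in IPP and 9 in JEJ, 8.11-fold higher (3.86 to 19.1). Among 4 measured defence genes, SLPI, a protease inhibitor, had 98 UMIs in IPP, 41.8% of them in 1 cell, and 1 UMI in JEJ, a ratio of 188 (33.0 to 7514). PIGR, the carrier of secreted IgA, had 0 UMIs in IPP and 217 in JEJ, at least 37.6-fold lower, and complement C3 was 64.3-fold lower on 2 IPP UMIs (17.6 to 534), with a list median log2 ratio of -3.11. At a mitochondrial limit of 10%, which left 10 IPP cells, PIGR was still at 0 UMIs in IPP. Its log2 ratio of 0.21 there was only a bound from the floor of 3 UMIs and shows no turn. Of 12 junction and keratin genes 1 was higher and 1 lower, beside 10.4% and 13.6% over all genes, with a median log2 ratio of 0.51. CLDN4, a claudin of tight junctions, was higher by 3.59-fold (3.32 to 3.88) and KRT8 lower by 2.04-fold (1.94 to 2.15). KRT8 fell short of 2-fold under 8 of the alternatives, both other scalings among them. Of 12 dissociation and stress genes 0 were higher and 2 lower, HSPH1, which fell short of 2-fold with thinned cells (log2 ratio -0.98), and HSP90AA1, which did so without the cells holding immune marker UMIs (-0.86). The stress list's counts also stand beside 10.4% and 13.6% over all genes. It had a median log2 ratio of -0.03, which was above 0 under both other scalings (0.02 and 0.10).

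Several other genes led the comparison without being on a list. PMP22, a membrane protein first known from myelin, was at 815 CPM in IPP and 0.611 CPM in JEJ, where it had 2 UMIs, a ratio of 1334 (369 to 11024). FGFBP1, which carries fibroblast growth factors, had 98 UMIs in IPP and 1 in JEJ, a ratio of 188 (33.0 to 7514). On the lower side stood SPR, an enzyme of biopterin synthesis, with 1 UMI in IPP and 1506 in JEJ (784-fold lower, 140 to 30973), and the trypsin inhibitor SPINK1, with 1 UMI in IPP and 1383 in JEJ (720-fold lower, 129 to 28445). NQO1, a quinone reductase, was at 7.63 CPM in IPP and 875 CPM in JEJ, 115-fold lower (66.9 to 216). DDC, a decarboxylase of aromatic amino acids, was 90.5-fold lower on 4 IPP UMIs (35.2 to 333), and CYP1A1, a cytochrome P450, was 286-fold lower on 1 IPP UMI (51.1 to 11304).

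**Figure D2:**
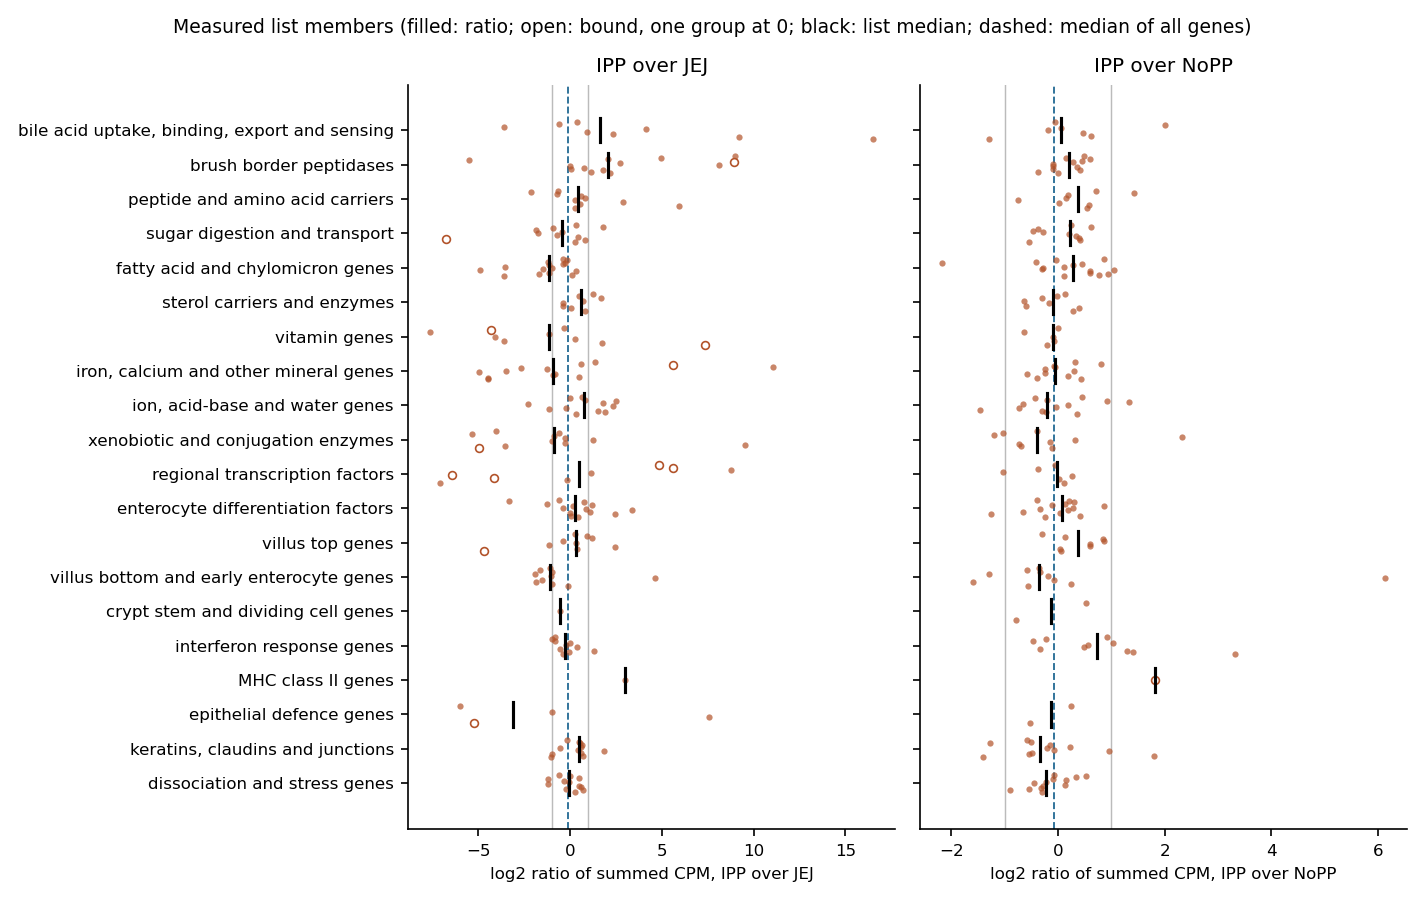
Log2 ratio of summed CPM for every measured member of the 20 gene lists, IPP over JEJ on the left and IPP over NoPP on the right. Filled points are ratios, open points are bounds where one group had 0 UMIs, black ticks are list medians, grey lines mark 2-fold and the dashed line is the median of all measured genes. Against JEJ the bile acid and peptidase lists have medians of 1.63 and 2.06, whereas against NoPP most members lie within 2-fold.

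The members of IPP and NoPP were compared next, since IPP epithelium lies beside lymphoid follicles. Of 4615 measured genes 209 were at least 2-fold higher in IPP (4.53%) and 221 at least 2-fold lower (4.79%), with a median log2 ratio of -0.08. Most pathway lists had no or few members past 2-fold. Of 12 measured peptidases 0 were called in either direction, and the same held for 10 sugar, 8 sterol, 5 vitamin and 11 mineral genes, with list medians between -0.09 and 0.23. Of 7 bile acid genes FABP6 was lower and ABCC2, an exporter of conjugates, was higher on 6 NoPP UMIs, by 4.03-fold (1.78 to 11.3), and the list's median log2 ratio was 0.06. SLC10A2 was 1.54-fold (1.37 to 1.74), SLC51A 1.38-fold (1.19 to 1.60) and NR1H4 1.04-fold (0.88 to 1.23). The 25 NoPP cells limit what can be said of rarer genes.

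FABP6 differed in its spread as well as its mean. It gave a median of 1.18% of a cell's UMIs in IPP (lowest 0, highest 13.5%) and 7.11% in NoPP (lowest 0.454, highest 16.3%). At least 5% was reached by 18 of 105 IPP cells (17.1%) and by 17 of 25 NoPP cells (68.0%). The groups overlapped over most of their range. The summed ratio was 2.45-fold lower in IPP (2.42 to 2.48), and at a gate of 2%, which removes cells low in FABP6, its log2 ratio of -1.29 became -0.85, short of 2-fold, as it did with the NoPP barcodes shared with DUOD kept (-0.89).

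Of the interferon response genes 4 of 10 measured members were higher in IPP and 0 lower, beside 4.53% and 4.79% of all genes. The list's median log2 ratio was 0.74. ISG15, a ubiquitin-like protein, was at 148 CPM in IPP and 14.8 CPM in NoPP, where it had 7 UMIs, 10.0-fold higher (4.79 to 25.2), with 26.6% of its IPP UMIs in 1 cell. For IFI6 the ratio was 2.65 (2.00 to 3.56) and for IRF1, a transcription factor, 2.44 (1.66 to 3.71). ISG20, an exonuclease, had 8 NoPP UMIs and a ratio of 2.05 whose interval included 1 (0.98 to 4.97). Of the 4 calls 3 ended under some alternatives. IFI6 did not reach 2-fold without cells holding 5 or more immune marker UMIs (log2 ratio 0.57) or with cells thinned to 2000 UMIs (0.66). Nor did it in the mean of the cells' CPM (0.98) or with the barcodes shared with DUOD kept (0.49). IRF1 did not with thinned cells (0.86) or with the shared barcodes kept (0.57). ISG20 did not at a mitochondrial limit of 40% (0.71), without the cells holding immune marker UMIs (0.65) or without the barcodes rich in goblet or M cell genes (0.86). Both comparisons use the same IPP cells. The JEJ cells had 192 CPM of ISG15, 320 CPM of IFI6, 34.8 CPM of ISG20 and 60.5 CPM of IRF1. The IPP cells had 148, 307, 34.6 and 149 CPM of these genes, so that only IRF1 was called higher in IPP against both. The T cell list, at 117 CPM in IPP and 71.7 CPM in NoPP, and the B cell list, at 112 CPM in IPP and 86.5 CPM in NoPP, were also higher in IPP, and their part was not tested.

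Other leading genes of IPP were TSPAN1, a tetraspanin, at 656 CPM in IPP and 190 CPM in NoPP, 3.45-fold higher (2.78 to 4.33), TM4SF4, 2.91-fold higher (2.58 to 3.30), PMP22, 2.70-fold higher (2.27 to 3.23), and ABHD2, 2.73-fold higher (2.05 to 3.72). COL17A1, a collagen of the cell's anchoring junctions, was 9.46-fold higher on 6 NoPP UMIs (4.27 to 26.1). With cells thinned to 2000 UMIs few if any of these remained, and its log2 ratio of 0.81 there may be a bound. PLB1, a phospholipase of the brush border, was 12.5-fold higher on 2 NoPP UMIs (3.37 to 105). Its log2 ratio of -0.13 with thinned cells was a bound from the floor of 3 UMIs in NoPP and shows no reversal. Per cell, TSPAN1 gave a median of 0.0445% of a cell's UMIs in IPP (0 to 0.309%) and 0.00644% in NoPP (0 to 0.0604%). REG4, SPINK4, SPIB and CFD also led but rested on few cells. REG4, a lectin of secretory cells, was 70.1-fold higher (34.0 to 175) with 49.4% of its IPP UMIs in 1 cell, and its log2 ratio of 6.13 was 3.43 without the barcodes rich in goblet or M cell genes. CFD, an enzyme of complement, had a log2 ratio of 3.02 with these barcodes and 0.83 without them. It was 0.01 without the cells holding immune marker UMIs and 0.51 with the NoPP barcodes shared with DUOD kept. SPIB, a transcription factor, had 93 UMIs in IPP and 0 in NoPP, with 49.5% in 1 IPP cell. SPINK4, a peptide of goblet cells, was 2.42-fold higher (2.15 to 2.73), with 48.0% of its UMIs in 1 cell of IPP and 95.2% in 1 cell of NoPP. It fell short of 2-fold at gates of 0.5% (log2 ratio 0.48) and 2% (0.83) and with the shared barcodes kept (0.98).

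On the lower side of IPP were PPP1R1B, a phosphatase inhibitor, at 17.0 CPM in IPP and 122 CPM in NoPP, 7.19-fold lower (4.53 to 11.6), NFIB, a transcription factor, 5.39-fold lower (2.86 to 10.4), OXCT1, an enzyme of ketone breakdown, 4.56-fold lower (2.65 to 7.94), and PYCARD, an adaptor of the inflammasome, 4.49-fold lower (2.97 to 6.84). CCL25 was at 354 CPM in IPP and 1067 CPM in NoPP, 3.02-fold lower (2.67 to 3.40). KRT8, a keratin of simple epithelium, was at 1028 CPM in IPP and 2723 CPM in NoPP, 2.65-fold lower (2.46 to 2.85). Per cell, KRT8 had a median of 0.0552% in IPP (0 to 0.694%) and 0.209% in NoPP (0.0205 to 0.742%), so that the groups overlapped. It was at 0 in 18 IPP cells and in 0 NoPP cells.

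The wide range of FABP6 within IPP was then followed across the 105 cells of this library. The cells were ordered by their FABP6 share, and the 35 highest (2.71 to 13.5%, median 5.09%) were set against the 35 lowest (0 to 0.384%, median 0.141%). This split was made on a gene that the gate used and after the values had been seen, so what follows is a description. Depth was similar, with a median of 15742 UMIs in the 35 FABP6-high cells and 13992 in the 35 FABP6-low cells, and the median mitochondrial share was 16.8% in the FABP6-high cells and 16.6% in the FABP6-low cells. Within 0.2 percentage points of the lower limit lay 17 cells, and of the upper limit 2 cells. Of 4522 measured genes 217 were at least 2-fold higher in the FABP6-high cells (4.8%) and 331 at least 2-fold lower (7.32%), with a median log2 ratio of -0.06.

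The other measured genes of bile acid transport and sensing differed by less than 2-fold along FABP6. While FABP6 itself stood at 66357 CPM in the FABP6-high cells and 1505 CPM in the FABP6-low cells, a ratio of 44.1, SLC10A2 was at 919 CPM in the FABP6-high cells and 1256 CPM in the FABP6-low cells, 1.37-fold lower (1.22 to 1.53). SLC51A was at 671 CPM in the FABP6-high cells and 676 CPM in the FABP6-low cells, and NR1H4 was at 422 CPM in the FABP6-high cells and 382 CPM in the FABP6-low cells, 1.11-fold (0.91 to 1.34). SLC51B ran with FABP6, at 1907 CPM in the FABP6-high cells and 1264 CPM in the FABP6-low cells, 1.51-fold (1.37 to 1.66). The distal markers TMIGD1, XPNPEP2 and CPO lay between 1.08-fold lower and 1.06-fold higher. All of these genes were thus at ileal levels in cells with little FABP6, against 1.83 CPM of SLC10A2 and 4.89 CPM of TMIGD1 in the JEJ cells. Across the 100 IPP cells of at least 2000 UMIs, each thinned to 2000, Spearman's rho with FABP6 was -0.13 for SLC10A2, -0.07 for SLC51A, -0.05 for NR1H4, -0.14 for TMIGD1 and 0.28 for SLC51B. These values share the library and the cell total, of which FABP6 itself takes up to 13.5%.

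A group of other genes was high in the same cells as FABP6. KRT8 was at 1810 CPM in the FABP6-high cells and 360 CPM in the FABP6-low cells, 5.03-fold higher (4.29 to 5.92), and 58.2% of its UMIs in the FABP6-low cells sat in 1 cell. RBP2 was 3.54-fold higher (2.88 to 4.39), ALDH1A1, which makes retinoic acid, 4.46-fold (3.42 to 5.91), the taurine carrier SLC6A6 6.67-fold (3.55 to 13.9), CCL25 3.37-fold (2.66 to 4.31) and LGALS2, a galectin, 4.07-fold (2.80 to 6.07). MAOA, a monoamine oxidase, was 4.09-fold higher (2.95 to 5.77). FABP1, part of the gate, was 2.07-fold higher (1.92 to 2.24). Of 12 measured keratin and junction genes 3 were higher, KRT8, KRT20 and LGALS4, and 1 was lower, KRT18, whose 23 UMIs in the FABP6-low cells all sat in 1 cell. SI was at 1897 CPM in the FABP6-high cells and 959 CPM in the FABP6-low cells, 1.98-fold (1.78 to 2.20). Ribosomal protein genes took 3.61% of UMIs in the FABP6-high cells and 3.20% in the FABP6-low cells, beside 4.25% in NoPP and 5.88% in JEJ.

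Another group was high where FABP6 was low. APOA1, through which cells low in FABP6 could pass the gate, was at 6863 CPM in the FABP6-high cells and 13171 CPM in the FABP6-low cells, with a rho of -0.49 in IPP and -0.57 in NoPP. TSPAN1 was at 295 CPM in the FABP6-high cells and 1044 CPM in the FABP6-low cells, 3.54-fold lower (2.98 to 4.22). APOC3 was 5.13-fold lower (3.74 to 7.15), PLB1 11.9-fold lower (4.76 to 38.1), GUCA2B 2.37-fold lower (1.93 to 2.93), with 38.4% of its UMIs in the FABP6-high cells in 1 cell, and HPGD, which breaks down prostaglandins, 3.51-fold lower (2.20 to 5.77). APOB, the scaffold of chylomicrons, was 2.01-fold lower (1.81 to 2.24). The FABP6-low cells were members through APOA1 or FABP1. How far this choice of cells bears on APOC3, APOB and the other genes of the group was not tested. The stress gene ATF3 was 2.12-fold lower (1.75 to 2.57), the other called member of the 13 measured stress genes was IER3, on 8 UMIs in the FABP6-high cells and 14 in the FABP6-low cells, and the list's median log2 ratio was -0.51. Of the villus lists, 2 of 10 bottom genes were higher in the FABP6-high cells, CCL25 and OTC, and 1 was lower, REG4, with a median log2 ratio of 0.21. REG4 had 7 UMIs in the FABP6-high cells, 71.4% of them in 1 cell, and 16 in the FABP6-low cells. Of 8 top genes 0 were higher and APOB was lower, with a median log2 ratio of -0.31. Over all genes 4.8% were higher and 7.32% lower, and the 1 lower gene of each list is near that share.

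The same ranks were computed in the separate cells of NoPP. Over its 25 members, thinned to 2000 UMIs, Spearman's rho with FABP6 was 0.70 for KRT8, 0.36 for RBP2, 0.28 for CCL25, -0.57 for TSPAN1 and -0.37 for SLC10A2. In IPP the values were 0.60 for KRT8, 0.46 for RBP2, 0.40 for CCL25 and -0.43 for TSPAN1. Of the 17 genes outside the gate for which rho was computed, 13 had the same sign in both libraries, and these 4 were picked after their values were seen. The sign differed for SI, with 0.45 in IPP and -0.19 in NoPP, and for APOA4, CCL20 and XPNPEP2, which lay between -0.17 and 0.12. Whether the FABP6-high or the FABP6-low cells of IPP lay nearer to the NoPP level varied from gene to gene. CCL25 was at 587 CPM in the FABP6-high cells, 174 CPM in the FABP6-low cells and 1067 CPM in NoPP, and TSPAN1 was at 295, 1044 and 190 CPM in the same groups, whereas IFI6 was at 345, 194 and 116 CPM and PPP1R1B at 20.0, 19.8 and 122 CPM. Since the libraries differ in their share of FABP6-rich cells, a difference between IPP and NoPP in CCL25 or TSPAN1 and the difference along FABP6 cannot be told apart here.

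**Figure D3:**
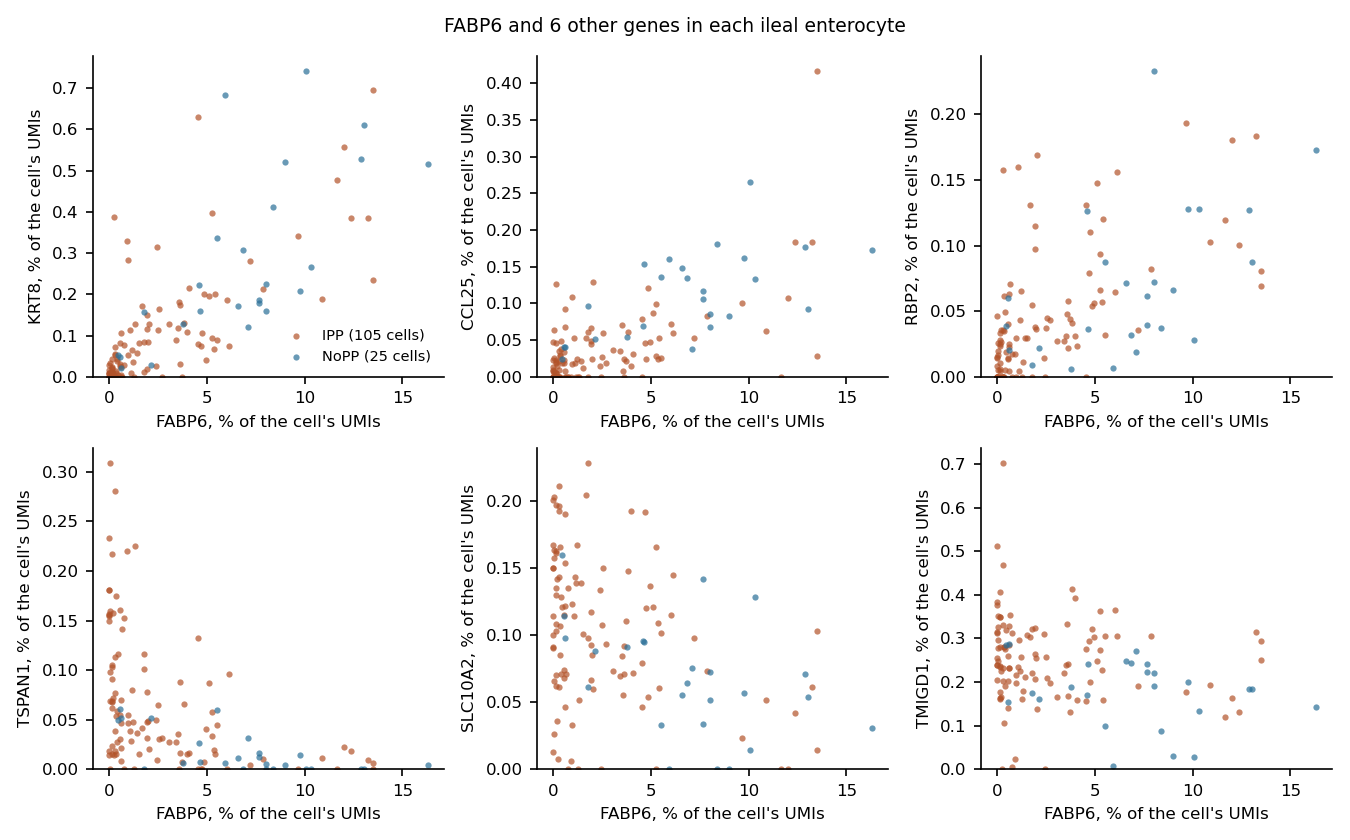
Share of each cell's UMIs given by FABP6 (horizontal axes, percent) and by 6 other genes (vertical axes, percent) in the 105 IPP and 25 NoPP members. KRT8, CCL25 and RBP2 are higher in cells with more FABP6, TSPAN1 is higher where FABP6 is low, and SLC10A2 and TMIGD1 are present over the whole range of FABP6.

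**Figure D4:**
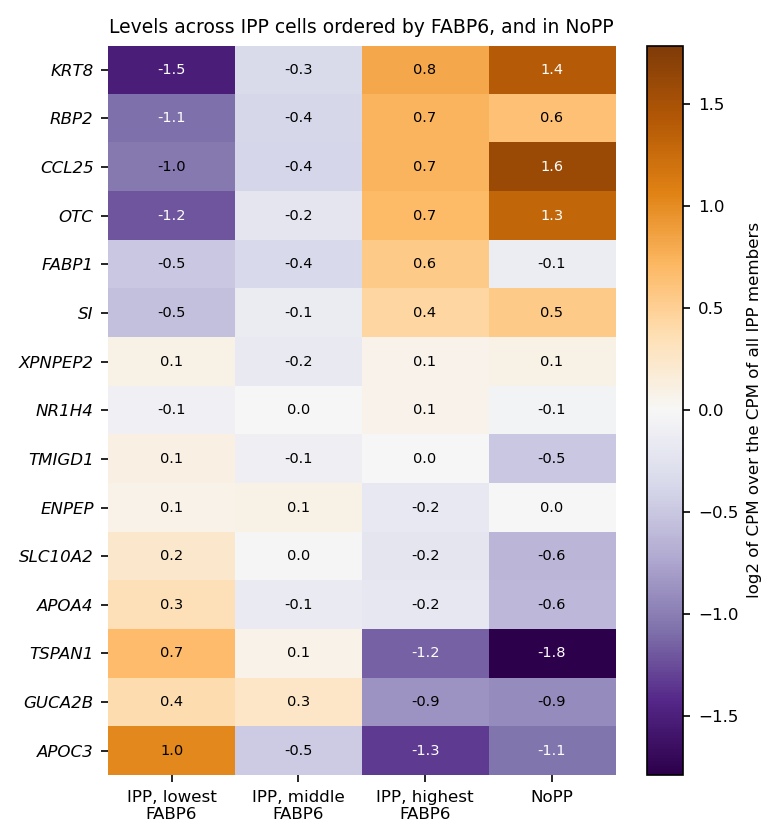
Log2 of CPM over the CPM of all 105 IPP members, for 15 genes, in the 35 IPP cells lowest in FABP6, the 35 in the middle, the 35 highest and the 25 NoPP members. KRT8 runs upward and TSPAN1 downward from low to high FABP6, and NoPP continues in the same direction for both, while XPNPEP2, NR1H4 and ENPEP stay close to 0.

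Clustering of the 130 members gave 3 groups with no name of their own. Cluster 0 held 46 IPP and 3 NoPP cells with a median FABP6 share of 0.293%, and its leading genes were GUCA2B at 728 CPM in the cluster and 199 CPM in the other members, PARP15, CAMK2N1, TSPAN1, SLC3A1 and ABHD2. Cluster 1 held 27 IPP and 18 NoPP cells with a median FABP6 share of 5.93% and was led, apart from genes of single barcodes, by KRT8 at 2797 CPM in the cluster and 691 CPM in the other members, FABP6 and CCL25. Cluster 2, with 32 IPP and 4 NoPP cells and a median of 1.79%, was led by goblet genes that sat in few barcodes. Median UMIs were 16000, 15997 and 18826 in clusters 0, 1 and 2. The clusters were formed from the same genes, so their leading genes are a description.

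A few members carried the genes of another cell type. Among the IPP members 3 barcodes had 27.0, 17.1 and 6.68% of their UMIs from the goblet list, and 1 NoPP member had 6.24%, while no other member passed 0.165% in IPP or 0.0567% in NoPP. TFF3, a trefoil peptide of mucus, had 2390, 2838 and 832 UMIs in the 3 IPP barcodes and 1506 in the NoPP one. MUC2, the main gel-forming mucin, had 142, 305 and 55 UMIs in the IPP barcodes and 49 in the NoPP one. The 3 IPP barcodes held 158, 462 and 109 UMIs of FABP6 and 1, 18 and 14 of SLC10A2, and SI had 0, 16 and 13. The first of them also had 0 UMIs of ENPEP and 4 of TMIGD1. JEJ had 4 such barcodes, from 1.37 to 12.0%.

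In 2 further IPP members the genes of M cells were found, the cells that pass antigens to the follicles of Peyer's patches. GP2, a receptor on M cells, had 137 and 48 UMIs in these barcodes, 4 UMIs in the other 103 IPP members, 0 in NoPP and 3 in JEJ. SPIB, a factor needed for M cells in mouse, had 30 and 46 UMIs, and TNFAIP2, another M cell marker, 2 and 15. Genes outside the list that stood out in the same barcodes, chosen after their values were seen, were SPP1 (osteopontin) with 807 UMIs in both together, against 98 in the other 103 IPP members and 0 in NoPP and JEJ, CEACAM20 with 176 UMIs against 22, SFRP5 with 68 against 20 and AIF1 with 47 against 7. SI was at 0 in both barcodes and TMIGD1 at 1 and 0. CSF1R, a macrophage receptor, was at 0 in both. With 19289 and 27407 UMIs they were not shallow, and whether they were single cells was not tested, since no doublet caller was run. Without the 6 barcodes rich in goblet or M cell genes and the 4 in JEJ, 470 genes were higher and 680 lower against JEJ, 191 higher and 258 lower against NoPP, and 246 higher and 283 lower in the FABP6-high cells against the FABP6-low cells.

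**Figure D5:**
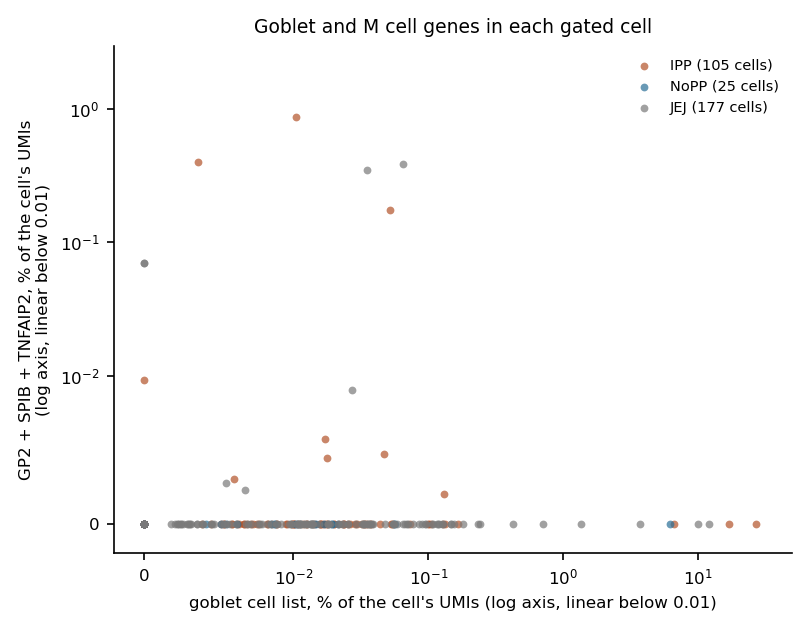
Share of each cell's UMIs from the 6 measured goblet markers (horizontal axis) and from GP2, SPIB and TNFAIP2 together (vertical axis) in IPP, NoPP and JEJ cells within the gate, both axes logarithmic and linear below 0.01%. In IPP 3 barcodes lie at 6.68 to 27.0% on the goblet axis and 2 others are highest on the M cell axis.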

How the data were processed

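The deposited files were matrices of UMI counts per gene and barcode, 1 for each region, written by Cell Ranger 4 per the file headers and 4.0.6 per the submitters' processing notes. The build is not given in the sources used here. Of 25880 genes, 17733 had a symbol in the files, 977 took one from a table of gene names and 7170 had none. A NoPP barcode was removed where the DUOD library held 10-fold its UMIs or more. UMI counts were summed over the cells of a group, divided by the group's total and compared as ratios with exact conditional Poisson intervals, while shares have exact Clopper-Pearson intervals. Against a group at 0 UMIs the ratio is a bound from a floor of 3 UMIs in that group. Measured genes had at least 20 CPM in either group and 10 UMIs together, and a call was 2-fold.

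Cells were scaled to 10000 UMIs and clustered on 1500 variable genes, 20 components and 15 neighbours at Leiden resolution 0.5. The software was Python 3.11.15, numpy 2.4.6, scipy 1.17.1, scanpy 1.11.5 and leidenalg 0.10.2. No doublet caller was run.

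Named genes were, by rule, the 12 highest and 12 lowest ratios at 50 CPM or more whose interval lay past 2-fold and in which no cell held 50% of the higher group's UMIs, up to 4 called members of each list with those that give a pathway in order, the 5 markers, and 8 leading genes of each cluster. From these the text gives a selection, and some genes are not reported here. Genes named along FABP6, in the barcodes rich in M cell genes, and as members near level were chosen after their values were seen. The members, the 20 gene lists and the split by FABP6 were chosen with earlier results of these data known. Promoter and protein sequences were not used here.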

Additional observations from a re-analysis of the deposited data

Results flagged for a closer look

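One barcode of the duodenal library, which the comparisons above do not use, carried ileal genes. It met the same gate and held 586 UMIs of FABP6, 25 of TMIGD1, 10 of SLC13A1 and 9 of SLC10A2 among 11754 UMIs, whereas the other 183 gated DUOD barcodes held 2 UMIs of FABP6 together. The same barcode had 488 UMIs in NoPP and 19 in IPP. It was singled out because FABP6 stood above the level of the other duodenal barcodes, and what it is was not tested.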

How the results depend on the processing

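No paired analysis was possible because each region was 1 matrix whose barcodes could not be assigned to the numbered titles. For the same reason no replicate could be left out. IPP had 10 members at a mitochondrial limit of 10%, 60 at a gate of 2% and 68 without cells holding 5 or more immune marker UMIs. NoPP had 0 members at a mitochondrial limit of 10%, so that IPP could not be set against NoPP there, 43 at a limit of 40% and 114 with the barcodes shared with DUOD kept. Against JEJ, the 494 higher genes became 762 at a mitochondrial limit of 10%, and the higher and lower counts were 1075 and 1322 with no minimum level, 162 and 245 at 100 CPM or more, and 259 and 266 at a 3-fold call. Against NoPP, they were 629 and 505, 33 and 27, and 62 and 46 under the same 3 settings, and 370 and 140 with each gene's highest cell left out. The higher count there was 382 with cells thinned to 2000 UMIs and the lower count 117 at a mitochondrial limit of 40%. Along FABP6, 184 genes were lower with thinned cells. At Leiden resolution 1 there were 7 clusters.

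Not every named gene was measured under each alternative. Leaving the 3-fold call aside, 53 of 77 named calls against JEJ had a value under all 16 alternatives, and 42 of these kept their call in each. Against NoPP 15 of 22 had a value under all 15, and 7 kept their call. Along FABP6 17 of 22 had a value under all 5, and 15 kept their call. Directions turned for REG4 without the cells holding immune marker UMIs (log2 ratio -1.37) and for GUCA2A and GUCA2B in the mean of the cells' CPM (-1.08 and -0.469). GUCA2A also turned against JEJ with thinned cells (-0.158). PIGR at a mitochondrial limit of 10% (0.21) and PLB1 against NoPP with thinned cells (-0.126) changed sign only as bounds from the floor of 3 UMIs. Calls also ended against JEJ at a mitochondrial limit of 10% for MT1A (0.70), IRF1 (0.52) and CDX2 (0.95). SCARB1 (-0.55) and PDX1 (-0.26), at 0 UMIs in IPP, fell short of 2-fold at this limit only as such bounds. The counts above treat bounds as ratios. Against NoPP with shared barcodes kept, calls ended for TM4SF4 (0.21), ABHD2 (0.23), IRF1 (0.57), ABCC2 (0.54) and COL17A1 (0.98). Along FABP6 they ended for LGALS4 with thinned cells (0.66) and for APOB (-0.95) and IER3 under the scaling without the most abundant genes. The cause was not tested. Settings without goblet or M cell barcodes and with 10000 UMIs or more, and all settings along FABP6, were chosen after seeing the data. Depth limits genes under about 20 CPM most in NoPP, where 3 UMIs are 6.33 CPM.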
